A study of Mus musculus and Homo sapiens with 9 samples.

Results

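The genes described here are those whose RNA was counted in J.gamma1 cells with and without knockdown of IRF2BP2, which accounts for 4 of the 9 samples of the series. The members were the 56105 rows, of 64252 in the human count table, that carried the identifier of an annotated gene. They were taken by 2 labels, the cell line and the hairpin. That rule used no measured values, although earlier results of these data were known. The account runs over surface, signalling, metabolic and non-coding genes.

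IRF2BP2 is a zinc finger and RING domain protein that was named as a binding partner of the transcription factor IRF2, and it acts as a co-regulator that can repress transcription. T-ALL, the acute lymphoblastic leukemia of the T lineage, is a cancer of immature T cells. Such cells keep parts of the program of thymocytes, in which the pre-T cell receptor, NOTCH1, interleukin 7 and cell adhesion govern growth and maturation, and their proliferation draws on the synthesis of nucleotides, serine and sterols.

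J.gamma1 is a human T-ALL cell line, a Jurkat derivative that was selected for lack of the phospholipase PLCG1. Both groups received a short hairpin RNA, which targeted IRF2BP2 in one (sh-IRF2BP2) and served as the control in the other (sh-NC), and each gave 2 libraries. No drug or other treatment was given in the labels, the time after delivery of the hairpins is not given in the sources used here, and neither is the sequence of the hairpin in the sequenced cells. The study made hairpins against 2 regions of IRF2BP2, and which one the sequenced cells carried, or whether both libraries carried the same, is not given in the sources used here. The use of 1 cell line limits the model, and effects of the hairpin on other RNAs and effects of the loss of IRF2BP2 cannot be told apart. Nothing states that the libraries of a group came from separate cultures, so the p-values measure the spread between these libraries, which may be technical.

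The libraries held between 26648204 and 31120236 counts, and a count of 0 allowed at most 0.0967 to 0.116 CPM, a limit that covers counting error only. CPM stands for the counts of a gene per 1000000 counts of its library, after TMM scaling. IRF2BP2 RNA measured 204 and 199 CPM with sh-NC and 78.96 and 93.8 CPM with sh-IRF2BP2, which fell by 1.22 on the log2 scale with a standard error of 0.131. Values after ± below are standard errors of the log2 fold change. The quasi-likelihood test of edgeR, adjusted by Benjamini and Hochberg's method as for every adjusted p here, gave an adjusted p = 0.00229, so the libraries went with their labels. PLCG1 RNA was present at 265 and 256 CPM with sh-NC and 316 and 346 CPM with sh-IRF2BP2. All 16 T cell markers passed the filter on low counts, although CD2 was low, at 3.71 and 5.802 CPM with sh-NC and 1.44 and 2.27 CPM with sh-IRF2BP2 (adjusted p = 0.0539, called without sh-NC replicate 1 at -1.64 and without sh-IRF2BP2 replicate 2 at -1.72). Of the B cell list 3 of 10 markers passed, its summed level was 62.2 and 79.1 CPM with sh-NC and 28.98 and 31.2 CPM with sh-IRF2BP2, and MS4A1, FCRL1 and IGHD had no count in any library. CD79A, the B cell receptor chain that made up most of that sum, fell by 2.07 on the log2 scale. Of the NK cell list 3 of 10 markers passed (NCAM1, PRF1 and NKG7), all called higher, and the sum went from 15.8 and 18.3 CPM to 34.6 and 34.2 CPM, with KIR2DL1, KLRF1 and NCR1 at 0 in every library. All these sums cover only markers that passed the filter, which were 1 of 11 myeloid (CD68), 4 of 10 erythroid and 4 of 12 epithelial and stromal markers. The myeloid sum stayed at or under 1.34 CPM with 6 of 11 markers at 0 throughout, the erythroid sum lay between 8.19 and 14.5 CPM with 4 of 10 at 0 and HBA2 called higher, and the epithelial and stromal sum lay between 7.83 and 11.3 CPM with 5 of 12 at 0 and COL1A1 called higher. In such bulk RNA, fewer cells of a type and less RNA per cell cannot be told apart, and the part of these marker levels in the changes below was not tested.

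A gene was called when its adjusted p was under 0.05 and its log2 fold change was at least 0.5 in size. Over the 15819 genes tested, 5.46% were called higher and 5.01% lower after knockdown, and the median log2 fold change was 0.0067. Surface and signalling genes were called higher more often than the table as a whole, and metabolic genes were called lower more often. Of coding genes alone, 6.46% were called higher and 5.9% lower. Of 407 surface genes tested, 51 (12.5%) were higher and 23 (5.65%) lower. Of 652 signalling genes, 94 (14.4%) were higher and 42 (6.44%) lower. Of 794 metabolic genes, 51 (6.42%) were higher and 68 (8.56%) lower. Of 2876 non-coding genes, 34 (1.18%) were higher and 36 (1.25%) lower. The number of calls moved with single libraries: without sh-IRF2BP2 replicate 1 the surface counts were 32 and 12, the signalling counts 43 and 18, the metabolic counts 28 and 33 and the non-coding counts 14 and 13, and without sh-NC replicate 1 they were 63 and 32, 140 and 52, 69 and 92, and 132 and 77, in the same order. Without sh-IRF2BP2 replicate 2 the signalling counts were 56 and 17, the metabolic counts 35 and 39 and the non-coding counts 21 and 24. Under all 12 alternatives, 267 of the 864 higher and 293 of the 793 lower calls over all genes were held. Of surface genes 20 of 51 higher and 8 of 23 lower calls held, and of signalling genes 27 of 94 and 12 of 42. Of metabolic genes 19 of 51 and 24 of 68 held, and of non-coding genes 5 of 34 and 5 of 36. Of 148 called genes named in the text and followed under the alternatives, 101 held. Many of these were chosen for large changes without overlap.

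**Figure D1:**
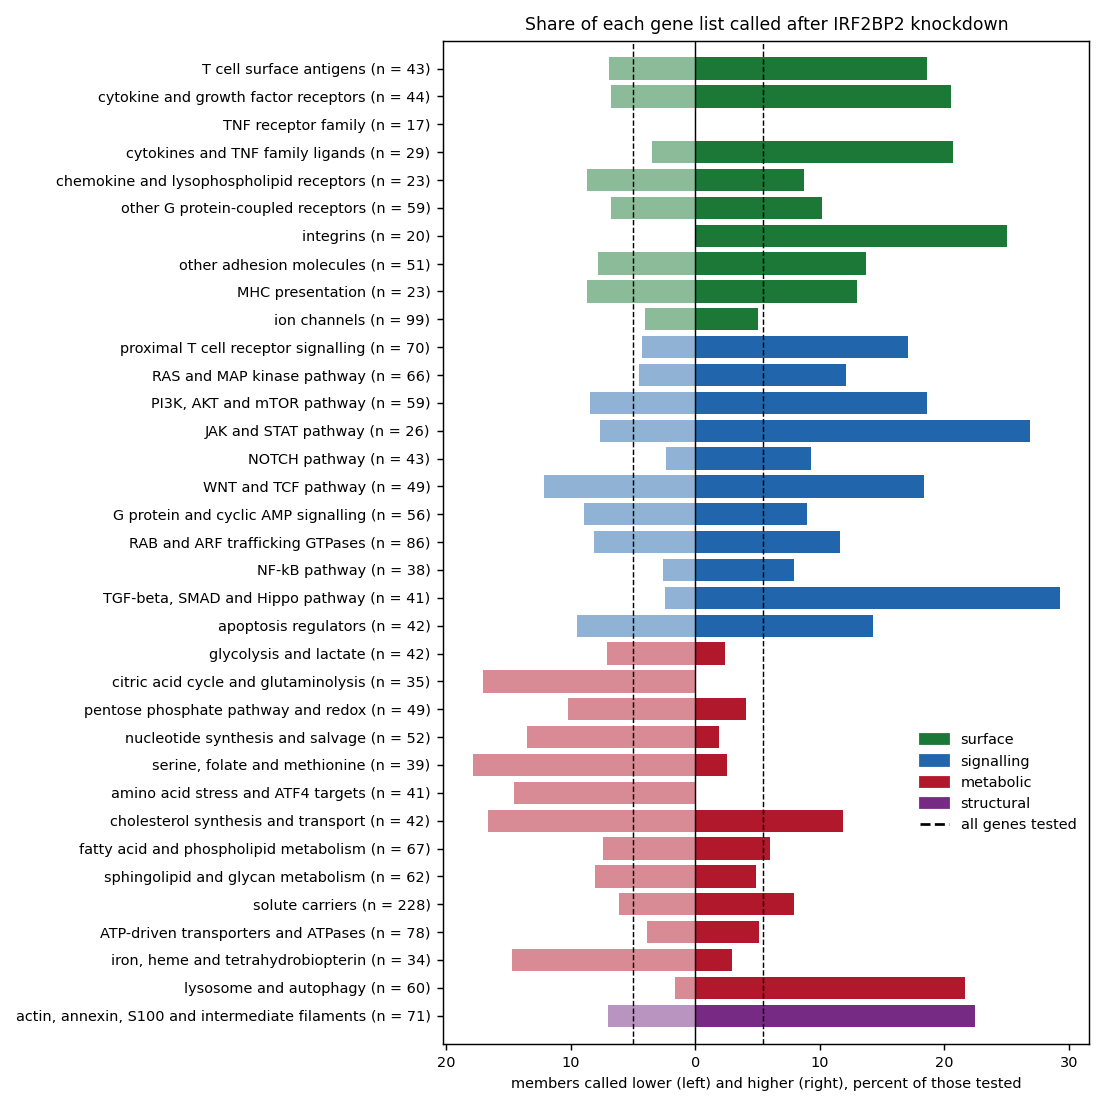
Percent of the tested members of each gene list called lower (pale bars, left) and higher (solid bars, right) in sh-IRF2BP2 against sh-NC libraries, with the number tested in brackets and dashed lines at the 5.01% and 5.46% of all genes tested. The bars of the signalling lists reach past the line on the right, and those of the citric acid cycle, nucleotide, serine and folate, amino acid stress and iron lists reach past the line on the left. Some signalling lists pass the left line too, such as WNT (12.2%) and apoptosis (9.52%). The lines include non-coding genes, and for coding genes alone the shares were 5.9% lower and 6.46% higher.

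Of the 43 T cell surface antigens tested, 8 (18.6%) were higher and 3 (6.98%) lower, with a median log2 fold change of 0.15. CD82, a tetraspanin that organizes membrane signalling domains, measured 57.4 and 62.98 CPM with sh-NC and 149 and 141 CPM with sh-IRF2BP2, with a log2 fold change of 1.27 ± 0.119 (adjusted p = 0.00156). PTPRC, which encodes the CD45 phosphatase that sets the activity of LCK, measured 439 and 426 CPM with sh-NC and 964 and 909.8 CPM with sh-IRF2BP2, with a log2 fold change of 1.11 ± 0.128 (adjusted p = 0.00288). The costimulatory receptor CD28 measured 26.1 and 25.5 CPM with sh-NC and 42.1 and 48.5 CPM with sh-IRF2BP2, with a log2 fold change of 0.81. In each of these antigens, both libraries with sh-IRF2BP2 lay above both with sh-NC, which the choice of CD82 and PTPRC required. THY1, a membrane-anchored glycoprotein of thymocytes, was higher too (0.89), but it was not called without sh-IRF2BP2 replicate 1 (0.74). The fallen antigens were led by SLAMF6, a receptor that binds itself on neighboring lymphocytes, at 29.3 and 29.9 CPM with sh-NC and 14.2 and 14.9 CPM with sh-IRF2BP2 (log2 fold change -1.02, adjusted p = 0.00561). CD38, an ectoenzyme that consumes NAD, and CD3D, a chain of the CD3 complex, fell by 0.86 and 0.79 on the log2 scale, and neither was called without sh-IRF2BP2 replicate 1 (-0.71 and -0.73). CD3E, the partner of CD3D in the complex, measured 409.7 and 475 CPM with sh-NC and 460.3 and 501 CPM with sh-IRF2BP2, with overlapping groups (adjusted p = 0.617). CD5 and CD7, which mark T cells from an early stage, had log2 differences of 0.33 and 0.29 that did not pass the test (adjusted p = 0.216 and 0.168).

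Receptors of cytokines and growth factors had 9 of 44 (20.5%) higher, 3 (6.82%) lower and a median of 0.32. IL2RA, the chain that gives the receptor high affinity, had 2 counts in each sh-NC library and 57 and 94 counts with sh-IRF2BP2, a ratio of 36.7 after scaling with a 95% interval of 14 to 136 that covers counting error only. IL2RB, the chain shared with the interleukin 15 receptor, measured 1.85 and 1.61 CPM with sh-NC and 5.53 and 5.26 CPM with sh-IRF2BP2, with a log2 fold change of 1.64 (adjusted p = 0.0124). IL7R, which passes the growth signal of interleukin 7, went the other way at 8.84 and 7.96 CPM with sh-NC and 3.81 and 4.24 CPM with sh-IRF2BP2 (log2 fold change -1.06, adjusted p = 0.0275), a call that was lost without either sh-IRF2BP2 library (-1.01 without replicate 1 and -1.14 without replicate 2). The receptors of TGF-beta went in opposite directions. TGFBR2, the type II receptor, measured 31.9 and 27.8 CPM with sh-NC and 50.1 and 54.7 CPM with sh-IRF2BP2, with a log2 fold change of 0.81 (adjusted p = 0.0104), while TGFBR1, the type I receptor that it activates, measured 77.9 and 69.9 CPM with sh-NC and 46.1 and 40.9 CPM with sh-IRF2BP2, with a log2 fold change of -0.76 (adjusted p = 0.0107, not called without sh-IRF2BP2 replicate 2 at -0.68). IL1RAP, the shared chain of interleukin 1 receptors, fell by 1.09 on the log2 scale, from 24.8 and 18.8 CPM to 9.96 and 10.5 CPM. Of the 17 genes of the TNF receptor family tested, 0 were called by edgeR or by DESeq2, while 3 were higher and 1 lower at an unadjusted p under 0.05 in edgeR's test. The death receptor FAS measured 30.9 and 32.6 CPM with sh-NC and 30.98 and 28.1 CPM with sh-IRF2BP2.

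Among 29 cytokines and TNF family ligands tested, 6 (20.7%) were higher and 1 (3.45%) lower. IL26, a cytokine of the interleukin 10 family, measured 7.45 and 7.57 CPM with sh-NC and 44.4 and 39.6 CPM with sh-IRF2BP2, with a log2 fold change of 2.48 ± 0.152 (adjusted p = 0.000507). FLT3LG, the growth factor of early lymphoid and dendritic progenitors, measured 6.45 and 5.74 CPM with sh-NC and 29.5 and 27.5 CPM with sh-IRF2BP2, with a log2 fold change of 2.23. CD40LG, by which helper T cells activate B cells, measured 17.6 and 18.9 CPM with sh-NC and 56.1 and 53.6 CPM with sh-IRF2BP2, with a log2 fold change of 1.58. In each of these genes both sh-IRF2BP2 libraries lay above both sh-NC libraries, which their choice required. HBEGF, a ligand of the epidermal growth factor receptor, rose by 1.54 on the log2 scale. IFNG, the interferon of T and NK cells, had no count with sh-NC and 13 and 12 counts with sh-IRF2BP2 (adjusted p = 0.028), a call lost without sh-NC replicate 2. TNFSF4, the ligand of OX40, was the only member called lower, from 8.303 and 5.35 CPM to 2.095 and 1.798 CPM (log2 fold change -1.81, adjusted p = 0.0126). TGFB1, the founding ligand of its family, had a log2 fold change of 0.54 (adjusted p = 0.0427) and lost its call without sh-NC replicate 1 (0.42) and without either sh-IRF2BP2 library (0.41 and 0.64).

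Of 20 integrin chains tested, 5 (25%) were higher and 0 lower by edgeR, with 1 lower at an unadjusted p under 0.05 and 1 called lower by DESeq2. The risen chains include ITGA5 and ITGB1, which pair as the fibronectin receptor. ITGA5 measured 54.7 and 65.1 CPM with sh-NC and 123 and 167 CPM with sh-IRF2BP2, with a log2 fold change of 1.27 ± 0.171 (adjusted p = 0.00467), and ITGB1 measured 238 and 226 CPM with sh-NC and 470.3 and 462 CPM with sh-IRF2BP2, with a log2 fold change of 1.01 ± 0.121 (adjusted p = 0.00308). ITGAV and ITGB7 rose by 0.82 and 1.29 but not without sh-IRF2BP2 replicate 1 (0.73 and 1.04, not called), and ITGAL, the alpha chain of the lymphocyte integrin LFA-1, rose by 0.81 but was not called without sh-IRF2BP2 replicate 2 (0.60). Its partner ITGB2 had a log2 difference of 0.4 (adjusted p = 0.0892), which passed without sh-NC replicate 2 (0.50). Of 51 other adhesion molecules, 7 (13.7%) were higher and 4 (7.84%) lower. SEMA4D, a semaphorin of T cells, went from 199.9 and 204 CPM to 392 and 396 CPM, with a log2 fold change of 0.96, and PLXNB2, a plexin receptor of semaphorins, rose by 1.26. NCAM1, a neural adhesion molecule that also marks NK cells, rose by 1.47.

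Of 23 receptors of chemokines and lysophospholipids, 2 (8.7%) were higher and 2 (8.7%) lower, and of 59 other G protein-coupled receptors 6 (10.2%) were higher and 4 (6.78%) lower. S1PR1, the receptor by which lymphocytes leave lymphoid organs along sphingosine phosphate, measured 14.8 and 15.2 CPM with sh-NC and 40.2 and 40.3 CPM with sh-IRF2BP2, with a log2 fold change of 1.42 ± 0.134 (adjusted p = 0.00157). Among chemokine receptors, CCR4, which binds CCL17 and CCL22, fell by 1.9 on the log2 scale (adjusted p = 0.00991), CXCR4, which holds cells in the marrow, had a log2 difference of -0.44 (adjusted p = 0.0805) that passed without sh-NC replicate 1 (-0.56), and CCR7, which guides cells to lymph nodes, had one of 0.61 (adjusted p = 0.116). ADGRG1, an adhesion receptor coupled to G proteins that cytotoxic lymphocytes carry, measured 12.3 and 18.1 CPM with sh-NC and 2.33 and 4.07 CPM with sh-IRF2BP2, with a log2 fold change of -2.25 ± 0.322 (adjusted p = 0.00589). The adhesion molecules PCDH9, a protocadherin, and CADM4, of the nectin-like family, fell by 1.35 and 1.13. PTGER4, a receptor of prostaglandin E2 that raises cyclic AMP, went up by 0.69 but not in the fit without sh-IRF2BP2 replicate 1 (0.66, not called).

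In antigen presentation 3 of 23 genes (13%) were higher and 2 (8.7%) lower, with a median log2 fold change of 0.18. TAP2, MR1 and ERAP1 rose by 1.175, 0.69 and 0.6 (adjusted p = 0.0417, 0.0204 and 0.0231). Their calls without single libraries are not given here. B2M had a log2 difference of 0.29 that did not pass the test (adjusted p = 0.244). CALR, a chaperone of the endoplasmic reticulum that helps to fold class I molecules, measured 1692 and 1704 CPM with sh-NC and 1025 and 875 CPM with sh-IRF2BP2 (log2 fold change -0.84, adjusted p = 0.0118, and -0.73 and not called without sh-IRF2BP2 replicate 2). Ion channels were called near the rate of the table, with 5 of 99 (5.05%) higher and 4 (4.04%) lower. Of these, LRRC8A and LRRC8D, subunits of the volume-regulated anion channel, were higher by 0.7 and 0.61, both lost without sh-IRF2BP2 replicate 1 (0.64 and 0.49), whereas CLIC1, an intracellular chloride channel protein, fell by 1.22.

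**Figure D2:**
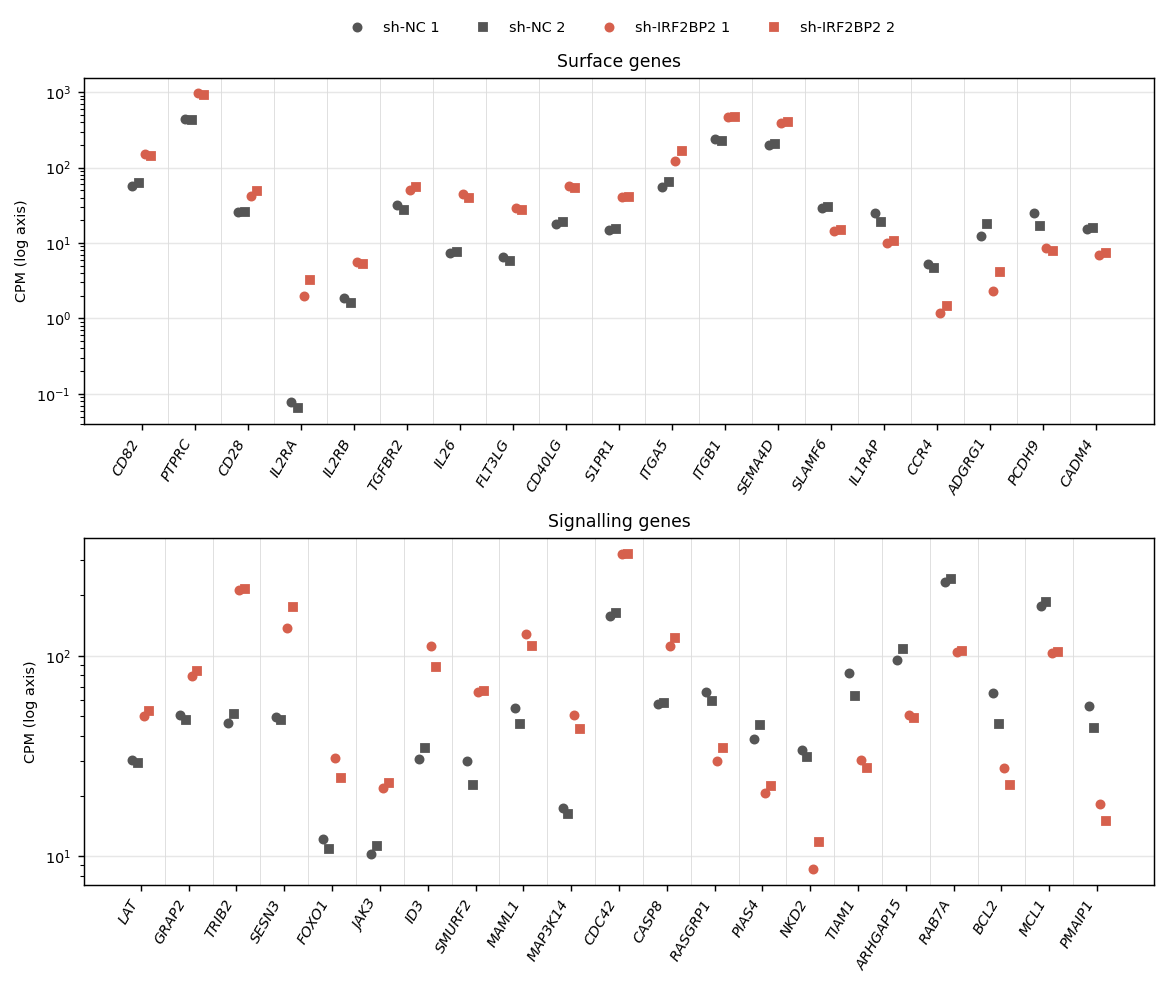
CPM per library (log axis) of surface genes (top) and signalling genes (bottom), with gray symbols for sh-NC and red for sh-IRF2BP2, circles for replicate 1 and squares for replicate 2. In every gene drawn the 2 red points lie on 1 side of the 2 gray points, above them from CD82 to SEMA4D and from LAT to CASP8 and below them in the rest. Most of these genes were chosen for lack of overlap between the groups or after their values were seen, so this order was set by the choice.

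Of 70 genes next to the T cell receptor, 12 (17.1%) were higher and 3 (4.29%) lower, with a median of 0.09. LAT, the membrane adaptor that gathers signalling proteins after receptor engagement, measured 30.4 and 29.3 CPM with sh-NC and 50.01 and 53.1 CPM with sh-IRF2BP2, with a log2 fold change of 0.79 ± 0.124 (adjusted p = 0.00843). GRAP2, which links LAT to the adaptor SLP-76, measured 50.5 and 47.99 CPM with sh-NC and 79.2 and 84.1 CPM with sh-IRF2BP2, with a log2 fold change of 0.73. The first kinases of the receptor did not pass the test: LCK and ZAP70 had log2 differences of -0.17 and -0.26 (adjusted p = 0.451 and 0.226). PTPN22, a phosphatase that restrains these kinases, rose by 0.86. RASGRP1, the exchange factor that turns on RAS downstream of the receptor, fell instead, from 65.96 and 59.4 CPM to 29.9 and 34.7 CPM (log2 fold change -0.96 ± 0.136, adjusted p = 0.00577). In the RAS and MAP kinase list, 8 of 66 (12.1%) were higher and 3 (4.55%) lower. MAP3K14, the kinase that starts the non-canonical NF-kB pathway, measured 17.4 and 16.3 CPM with sh-NC and 50.5 and 43.2 CPM with sh-IRF2BP2, with a log2 fold change of 1.48 (adjusted p = 0.00173), and TRAF3, an adaptor that directs degradation of the MAP3K14 protein, measured 131 and 112 CPM with sh-NC and 70.4 and 67.5 CPM with sh-IRF2BP2, with a log2 fold change of -0.81 (adjusted p = 0.00795). The feedback inhibitors of the pathway SPRED2 and SPRY2 fell by 0.84 and 0.68, neither being called without sh-IRF2BP2 replicate 2 (-0.77 and -0.62), and SPRY2 also not without sh-NC replicate 2 (-0.63) or sh-IRF2BP2 replicate 1 (-0.76). DUSP6, a phosphatase of ERK, had a log2 difference of -0.96 (adjusted p = 0.0619, and 0.0406 by DESeq2).

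The PI3K, AKT and mTOR list had 11 of 59 (18.6%) higher and 5 (8.47%) lower, with a median of 0.3. TRIB2, a pseudokinase that brings target proteins to a ubiquitin ligase, had the largest rise among them at 46 and 51.5 CPM with sh-NC and 214 and 216 CPM with sh-IRF2BP2, with a log2 fold change of 2.14 ± 0.125 (adjusted p = 0.000414). SESN3, a sestrin that holds back mTOR complex 1, measured 49.5 and 47.6 CPM with sh-NC and 138 and 175 CPM with sh-IRF2BP2, with a log2 fold change of 1.69 ± 0.146 (adjusted p = 0.00127). FOXO1, the transcription factor that AKT keeps out of the nucleus, measured 12.2 and 10.9 CPM with sh-NC and 30.9 and 24.5 CPM with sh-IRF2BP2, with a log2 fold change of 1.26 (adjusted p = 0.00577). On the other side PIM1, a survival kinase, and RPS6KB1, the S6 kinase that mTOR activates, fell by 0.97 and 0.67, with no call for PIM1 without sh-IRF2BP2 replicate 2 (-0.84) and none for RPS6KB1 without sh-IRF2BP2 replicate 1 (-0.68).

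Among 26 genes of the JAK and STAT pathway, 7 (26.9%) were higher and 2 (7.69%) lower, with a median of 0.34. JAK3, the kinase of the common gamma chain receptors, measured 10.2 and 11.2 CPM with sh-NC and 21.8 and 23.2 CPM with sh-IRF2BP2, with a log2 fold change of 1.07 (adjusted p = 0.00779). IRF9, a subunit of the type I interferon complex, and STAT4, which carries the interleukin 12 signal, rose by 1.87 and 1.55. STAT5A, which carries the interleukin 2 and interleukin 7 signals, measured 14.02 and 14.8 CPM with sh-NC and 7.76 and 8.65 CPM with sh-IRF2BP2 (log2 fold change -0.81, adjusted p = 0.0332), and its call was lost without sh-NC replicate 2 (-0.77) and without either sh-IRF2BP2 library (-0.76 and -0.89). PIAS4, a SUMO ligase that restrains STAT factors, fell from 38.5 and 45.2 CPM to 20.6 and 22.5 CPM (log2 fold change -0.96).

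The TGF-beta, SMAD and Hippo list held the highest share of risen genes among the signalling lists, 12 of 41 (29.3%), with 1 (2.44%) lower and a median of 0.31. Among them were 3 inhibitors of DNA binding, which block E proteins and are induced by BMP and TGF-beta signals. ID3 measured 30.6 and 34.6 CPM with sh-NC and 112 and 88.2 CPM with sh-IRF2BP2, with a log2 fold change of 1.62 ± 0.153 (adjusted p = 0.00157). ID1 went from 26.6 and 23.98 CPM to 58.5 and 45.8 CPM, with a log2 fold change of 1.04, and ID2 from 1.93 and 2.58 CPM to 11.9 and 7.57 CPM, with a log2 fold change of 2.1. SMURF2, a ubiquitin ligase of SMADs and receptors, measured 29.9 and 22.6 CPM with sh-NC and 66.3 and 66.6 CPM with sh-IRF2BP2 (log2 fold change 1.34, adjusted p = 0.00297), the co-repressor SKIL rose by 1.19 but not without sh-IRF2BP2 replicate 1 (0.88, not called), and SMAD7, which blocks the receptors, had 27 and 13 counts with sh-NC and 162 and 102 with sh-IRF2BP2 (log2 fold change 2.64, adjusted p = 0.015).

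In the NOTCH list 4 of 43 (9.3%) were higher and 1 (2.33%) lower. NOTCH1, the receptor most often mutated in T-ALL, measured 141 and 108 CPM with sh-NC and 114 and 94.7 CPM with sh-IRF2BP2 with overlapping groups. MAML1, the coactivator of the nuclear NOTCH complex, measured 54.6 and 45.9 CPM with sh-NC and 128 and 112 CPM with sh-IRF2BP2, with a log2 fold change of 1.26 ± 0.138 (adjusted p = 0.00244), and NOTCH2 rose by 0.97. Of the direct targets, HES1 had a log2 difference of 1.15 (adjusted p = 0.061, called without sh-NC replicate 2 at 1.60 and with an adjusted p of 0.0261 by DESeq2) and DTX1 one of 0.49 (adjusted p = 0.0724, and called without sh-NC replicate 1 at 0.57). PTCRA, the pre-T cell receptor alpha chain and also a target, was low, at 1.24 and 2.67 CPM with sh-NC and 0.275 and 0.407 CPM with sh-IRF2BP2 (log2 fold change -2.51, adjusted p = 0.0297), and lost its call without sh-NC replicate 2 (-1.85) and without sh-IRF2BP2 replicate 1 (-2.29). In the WNT list 9 of 49 (18.4%) were higher and 6 (12.2%) lower. CTNNB1, the beta-catenin that carries the signal, and TCF7, the factor it binds in T cells, rose by 0.7 and 0.58, both lost without sh-IRF2BP2 replicate 1 (0.62 and 0.50) and TCF7 also without sh-IRF2BP2 replicate 2 (0.63). NKD2, an antagonist of Dishevelled, measured 33.9 and 31.4 CPM with sh-NC and 8.65 and 11.8 CPM with sh-IRF2BP2, with a log2 fold change of -1.67 ± 0.188 (adjusted p = 0.00275).

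CDC42, a GTPase that drives polarity and filopodia, measured 158 and 164 CPM with sh-NC and 320.5 and 322 CPM with sh-IRF2BP2, with a log2 fold change of 1.0 ± 0.117 (adjusted p = 0.00297). A pair of RAC regulators fell: TIAM1, an exchange factor that turns RAC on, measured 82.2 and 62.8 CPM with sh-NC and 30.3 and 27.6 CPM with sh-IRF2BP2 (log2 fold change -1.32, adjusted p = 0.00306), and ARHGAP15, a GTPase-activating protein that turns it off, measured 95.5 and 108 CPM with sh-NC and 50.6 and 49.2 CPM with sh-IRF2BP2 (log2 fold change -1.02, adjusted p = 0.00297). RHOH, a GTPase of blood cells needed for T cell receptor signalling, fell by 0.75, a call lost without sh-IRF2BP2 replicate 1 (-0.65). Trafficking GTPases of the RAB and ARF families, whose list also took in RAB-interacting proteins by symbol, had 10 of 86 (11.6%) higher and 7 (8.14%) lower, with RAB7A, the GTPase of late endosomes, down from 234 and 242 CPM to 104 and 106 CPM (log2 fold change -1.18 ± 0.116, adjusted p = 0.00173). G protein and cyclic AMP genes had 5 of 56 in each direction, and the NF-kB list had 3 of 38 (7.89%) higher and 1 lower.

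Regulators of apoptosis showed 6 of 42 (14.3%) higher and 4 (9.52%) lower, with a median of 0. CASP8, the initiator caspase of death receptors, measured 57.5 and 57.9 CPM with sh-NC and 112 and 122 CPM with sh-IRF2BP2, with a log2 fold change of 1.02 ± 0.116 (adjusted p = 0.00275). TP53INP1, a stress protein induced by p53, measured 10.2 and 14.9 CPM with sh-NC and 41.4 and 62.7 CPM with sh-IRF2BP2, with a log2 fold change of 2.05. The fallen members were on both sides of the balance that the BCL2 family keeps. BCL2, which protects mitochondria, measured 65.3 and 45.8 CPM with sh-NC and 27.6 and 22.6 CPM with sh-IRF2BP2 (log2 fold change -1.14, adjusted p = 0.0111), MCL1, another guard of the same family, measured 177 and 186 CPM with sh-NC and 103 and 105 CPM with sh-IRF2BP2 (log2 fold change -0.8, adjusted p = 0.00587), and PMAIP1, which encodes NOXA and neutralizes MCL1, measured 56.4 and 43.5 CPM with sh-NC and 18.3 and 14.99 CPM with sh-IRF2BP2 (log2 fold change -1.58, adjusted p = 0.00275).

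A feature that the choice of members did not use is the 6 letters GGTCTA in the 3′ UTR of the canonical transcript. Of the 42 apoptosis genes 14 (33.3%) held it, of which 4 were lower, 2 higher (MDM2 and TP53INP1) and 8 not called. This word had been noticed in earlier results of these data, so the counts here describe it and do not test it. It was searched on the sense strand, and 2017 of the 12568 coding genes tested held it (16%), counting those whose 3′ UTR had 50 bases or more. Of genes with the word 14.3% were lower and 5.6% higher, and of genes without it 4.34% were lower and 6.7% higher. Genes with the word had longer 3′ UTRs, with a median of 3103 against 1091 bases. The difference in falls was widest in short 3′ UTRs. Under 1000 bases, 25.8% of 221 genes with the word were lower against 4.74% of 4995 without. At 3000 bases or more, 9.51% of 1041 were lower against 3.03% of 1750. In each range of length, fewer genes with the word were higher. The shares were 0.905% against 3.18% under 1000 bases, 2.91% against 8.3% at 1000 to under 3000 and 8.55% against 13.3% above. Genes of the lists that hold it include the risen S1PR1, SESN3, MGAT5 and PGM2L1. The lowered holders include MCL1, TIAM1, RAB7A, GCH1, EBP, GALNT6 and ANXA2, and IRF2BP2 itself holds it once. These sites are shown to let the letters around the word be compared, in hg38 coordinates of the GENCODE 44 transcripts, 5′ to 3′ on the strand of the gene, with the word in capitals.
IRF2BP2, chr1:234605615-234605638, minus strand: tggcttcaaGGTCTAcaatttatg
MCL1, chr1:150576316-150576339, minus strand: caataattaGGTCTAagtggagtt
MCL1, chr1:150575997-150576020, minus strand: acacacacaGGTCTAagcctagta
TIAM1, chr21:31118479-31118502, minus strand: ctgaaagaaGGTCTAtttttatgt
TIAM1, chr21:31118459-31118482, minus strand: atgtttttaGGTCTAtgaatggaa
RAB7A, chr3:128814709-128814732, plus strand: ttttccaaaGGTCTAcattctagg
GCH1, chr14:54842248-54842271, minus strand: tcttataaaGGTCTAatgtatcca
EBP, chrX:48528654-48528677, plus strand: aagccaggaGGTCTAtgatggtga
GALNT6, chr12:51353326-51353349, minus strand: cagatcagaGGTCTAagagatcct
ANXA2, chr15:60347560-60347583, minus strand: cagctaacaGGTCTAgaaaaccag
These are sites that an A precedes, so that letter is common to them by choice, and MCL1, GCH1 and TIAM1 hold further sites without it. Of the 1102 genes in which an A came before or after the word, 18.7% were lower and 4.45% higher. With single lists restricted to genes without the word, the lower counts went from 4 to 0 of 28 apoptosis genes. For JAK and STAT genes they went from 2 to 0 of 20. They went from 5 to 1 of 45 PI3K genes and from 6 to 2 of 36 WNT genes. The count went from 6 to 3 of 30 citric acid cycle genes. It stayed at 7 of 37 serine and folate genes and at 4 of 43 adhesion genes. Higher counts went from 9 to 3 of 34 cytokine receptors and from 26 to 20 of 59 T lineage factors. At the 4.34% lower among genes without the word, lists this small hold few lower calls or none. Over the whole classes, the lower counts without word-bearing genes were 18 of 329 surface, 21 of 528 signalling and 45 of 675 metabolic genes. The higher counts were 40, 82 and 48. Of all 10721 coding genes without the word, with any length of 3′ UTR, 463 were lower and 710 higher. The part of the word in any of these falls or rises was not tested.

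**Figure D3:**
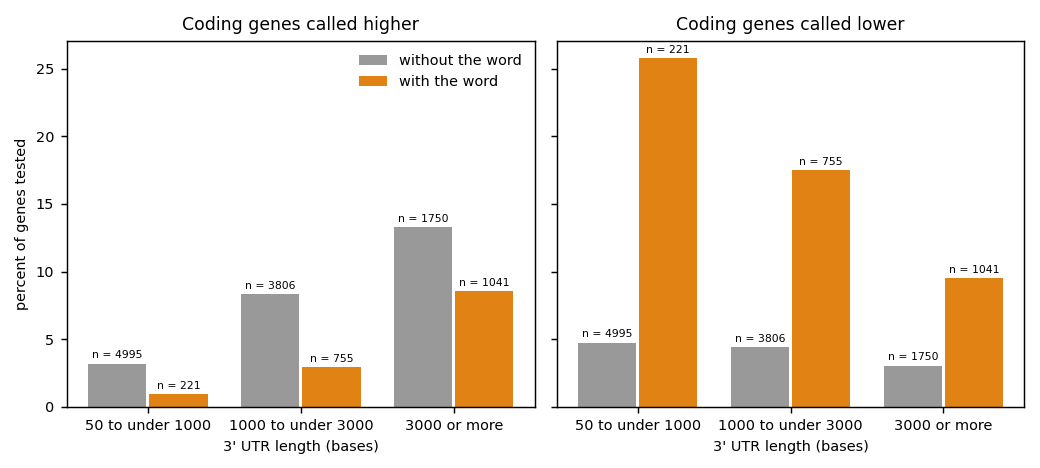
Percent of tested coding genes called higher (left) and lower (right) by length of the 3′ UTR, without (gray) and with (orange) the word GGTCTA in it, with the number of genes above each bar. Gray bars on the left rise from 3.18% to 13.3% with length, and orange bars on the right fall from 25.8% to 9.51%. Orange bars on the left rise from 0.905% to 8.55% and stay below the gray ones.

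Length of the 3′ UTR also moved with the rises. Of all coding genes tested, 3.09% were higher where the 3′ UTR had under 1000 bases, 7.41% where it had 1000 to under 3000 and 11.5% where it had 3000 or more. Within these 3 ranges, 8%, 13.6% and 18.1% of surface genes and 7.81%, 16.1% and 18.7% of signalling genes were higher, which is above the share of all coding genes of like length in each range. For metabolic genes the shares higher were 2.25%, 8.6% and 12.3%, and the shares lower were 8.17%, 8.96% and 9.03%, against 5.64%, 6.58% and 5.45% of all coding genes.

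Of 39 genes of serine, folate and methionine metabolism, 7 (17.9%) were lower and 1 (2.56%) higher, with a median log2 fold change of -0.22. PHGDH, the first enzyme of serine synthesis, measured 168 and 189.9 CPM with sh-NC and 104 and 93.2 CPM with sh-IRF2BP2, with a log2 fold change of -0.86 ± 0.128 (adjusted p = 0.00672). CBS, which starts the transfer of sulfur from homocysteine to cysteine, measured 22.2 and 25.7 CPM with sh-NC and 11.5 and 11.4 CPM with sh-IRF2BP2, with a log2 fold change of -1.07 (adjusted p = 0.008). PSAT1 of the serine path and CTH, the enzyme after CBS, fell by 0.85 and 1.02, but PSAT1 was not called without sh-IRF2BP2 replicate 2 (-0.69) nor CTH without sh-IRF2BP2 replicate 1 (-0.83). The exception was SLC25A32, which carries folate into mitochondria, at 41.1 and 30.9 CPM with sh-NC and 90.5 and 72.8 CPM with sh-IRF2BP2 (log2 fold change 1.18, adjusted p = 0.00664). In the list of amino acid stress and ATF4 targets 6 of 41 (14.6%) were lower and 0 higher by edgeR, with 1 higher at an unadjusted p under 0.05 and 1 called higher by DESeq2. ATF4 itself, the factor that induces these genes, had a log2 difference of -0.46 (adjusted p = 0.0575).

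Of 52 genes of nucleotide synthesis and salvage, 7 (13.5%) were lower and 1 (1.92%) higher, and 39 had a negative log2 fold change. ADA, the deaminase whose loss causes immunodeficiency, measured 602 and 690.2 CPM with sh-NC and 390.5 and 429.6 CPM with sh-IRF2BP2, with a log2 fold change of -0.66 (adjusted p = 0.023, and no call without either sh-IRF2BP2 library, at -0.61 and -0.73). TK2, the thymidine kinase of mitochondria, measured 22.9 and 23.5 CPM with sh-NC and 12.4 and 12.3 CPM with sh-IRF2BP2, with a log2 fold change of -0.91 (adjusted p = 0.0114). Of 35 genes of the citric acid cycle and glutaminolysis, 6 (17.1%) were lower and 30 had a negative log2 fold change, with a median of -0.24. There were 0 higher by edgeR, by DESeq2 or at an unadjusted p under 0.05. Their summed level was 4609 and 4832 CPM with sh-NC and 4021 and 3867 CPM with sh-IRF2BP2. SDHC, an anchor subunit of succinate dehydrogenase, measured 104 and 109 CPM with sh-NC and 63.8 and 63.6 CPM with sh-IRF2BP2 (log2 fold change -0.74, adjusted p = 0.00704). FH, the fumarase that acts on its product, fell by 0.78, and lost the call without sh-IRF2BP2 replicate 2 (-0.74). NNT, which makes mitochondrial NADPH, measured 142 and 127 CPM with sh-NC and 63.6 and 68.1 CPM with sh-IRF2BP2, with a log2 fold change of -1.03 ± 0.121 (adjusted p = 0.00299).

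Of 42 genes of cholesterol synthesis and transport, 7 (16.7%) were lower and 5 (11.9%) higher, with a median of -0.15. All 7 that fell encode enzymes of synthesis, although SC5D, another such enzyme, rose by 0.58 (0.46, 0.59 and 0.55 and not called without sh-NC replicate 2, sh-IRF2BP2 replicate 1 and sh-IRF2BP2 replicate 2). EBP, the sterol isomerase, measured 53.8 and 68.5 CPM with sh-NC and 18.9 and 21.2 CPM with sh-IRF2BP2, with a log2 fold change of -1.61 ± 0.159 (adjusted p = 0.00179). DHCR7, a reductase of the last steps to cholesterol, measured 109.6 and 116 CPM with sh-NC and 60.4 and 65.8 CPM with sh-IRF2BP2, with a log2 fold change of -0.83 (adjusted p = 0.0055). The risen genes include MYLIP, a ubiquitin ligase that oxysterols induce, at 4.09 and 4.42 CPM with sh-NC and 13.3 and 16.7 CPM with sh-IRF2BP2 (log2 fold change 1.81, adjusted p = 0.00315), and NR1H2, an oxysterol receptor, at 23.6 and 26.98 CPM with sh-NC and 55.98 and 57.1 CPM with sh-IRF2BP2 (log2 fold change 1.16, adjusted p = 0.00277). Fatty acid and phospholipid genes were called at 5.97% higher and 7.46% lower of 67. ACADM, which oxidizes medium-chain fatty acids, measured 187 and 184 CPM with sh-NC and 81.2 and 86.9 CPM with sh-IRF2BP2, with a log2 fold change of -1.14 ± 0.117 (adjusted p = 0.00198), while FASN, the fatty acid synthase, and SCD, which desaturates its products, had log2 differences of -0.29 and 0.13 that did not pass the test (adjusted p = 0.204 and 0.608).

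Of 34 genes of iron, heme and tetrahydrobiopterin, 5 (14.7%) were lower and 1 (2.94%) higher. GCH1, the rate-limiting enzyme of tetrahydrobiopterin synthesis, measured 54.7 and 55.7 CPM with sh-NC and 12.6 and 11.6 CPM with sh-IRF2BP2, with a log2 fold change of -2.19 ± 0.136 (adjusted p = 0.000507). SLC40A1, which encodes ferroportin, the iron exporter, measured 87.8 and 78.03 CPM with sh-NC and 23.1 and 23.5 CPM with sh-IRF2BP2, with a log2 fold change of -1.83 ± 0.127 (adjusted p = 0.0007). SLC11A2, a divalent metal transporter that brings iron into the cytosol, went the other way at 58.7 and 48.9 CPM with sh-NC and 116 and 107 CPM with sh-IRF2BP2 (log2 fold change 1.06, adjusted p = 0.00371). ALAD, the second enzyme of heme synthesis, fell from 48.6 and 52.8 CPM to 21.98 and 26.2 CPM (log2 fold change -1.07), and ABCB10, a transporter of the inner mitochondrial membrane needed for heme synthesis, from 504 and 451 CPM to 270.4 and 250.3 CPM (log2 fold change -0.88). The transferrin receptor TFRC measured 729 and 618 CPM with sh-NC and 628 and 531 CPM with sh-IRF2BP2 with overlapping groups. Outside these lists, ALDH1A2, which makes retinoic acid, measured 252 and 275 CPM with sh-NC and 47.9 and 67.2 CPM with sh-IRF2BP2, with a log2 fold change of -2.19 ± 0.177 (adjusted p = 0.00112).

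Lysosome and autophagy genes were mostly higher among those called, with 13 of 60 (21.7%) higher and 1 (1.67%) lower. ATG9A, which carries lipid to the growing autophagosome, measured 29.1 and 31.8 CPM with sh-NC and 61.3 and 71.4 CPM with sh-IRF2BP2, with a log2 fold change of 1.12 (adjusted p = 0.00309). ULK1, the kinase that starts autophagy, measured 48.7 and 52.4 CPM with sh-NC and 95.5 and 96.2 CPM with sh-IRF2BP2, and ATG14, which directs the lipid kinase of autophagy, measured 23.2 and 23.1 CPM with sh-NC and 44.8 and 47.7 CPM with sh-IRF2BP2, with log2 fold changes of 0.92 and 1.0. GABARAPL1, which coats autophagosomes, rose by 0.84, and the protease CTSW of cytotoxic lymphocytes rose by 1.21. LAMP3, a lysosomal membrane protein, was the 1 that fell, from 90.95 and 89.8 CPM to 36.9 and 36.2 CPM (log2 fold change -1.31 ± 0.114, adjusted p = 0.00133). Subunits of the vacuolar ATPase, which acidifies lysosomes, split: ATP6V0A1 of its membrane sector measured 33.2 and 29.4 CPM with sh-NC and 76.3 and 74.9 CPM with sh-IRF2BP2 (log2 fold change 1.27), and ATP6V1C1 of its cytosolic sector measured 102 and 85.2 CPM with sh-NC and 26.8 and 25.7 CPM with sh-IRF2BP2 (log2 fold change -1.84, adjusted p = 0.000887). SLC36A1, an amino acid transporter of lysosomes, rose by 1.43. Solute carriers as a whole had 18 of 228 (7.89%) higher and 14 (6.14%) lower. Glycan enzymes had 3 of 62 (4.84%) higher and 5 (8.06%) lower, where ST3GAL1, which caps O-glycans with sialic acid, and MGAT5, which adds branches to N-glycans, rose by 1.11 and 1.08, and GALNT6 and GALNT12, which start O-glycans, fell by 1.71 and 0.99.

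**Figure D4:**
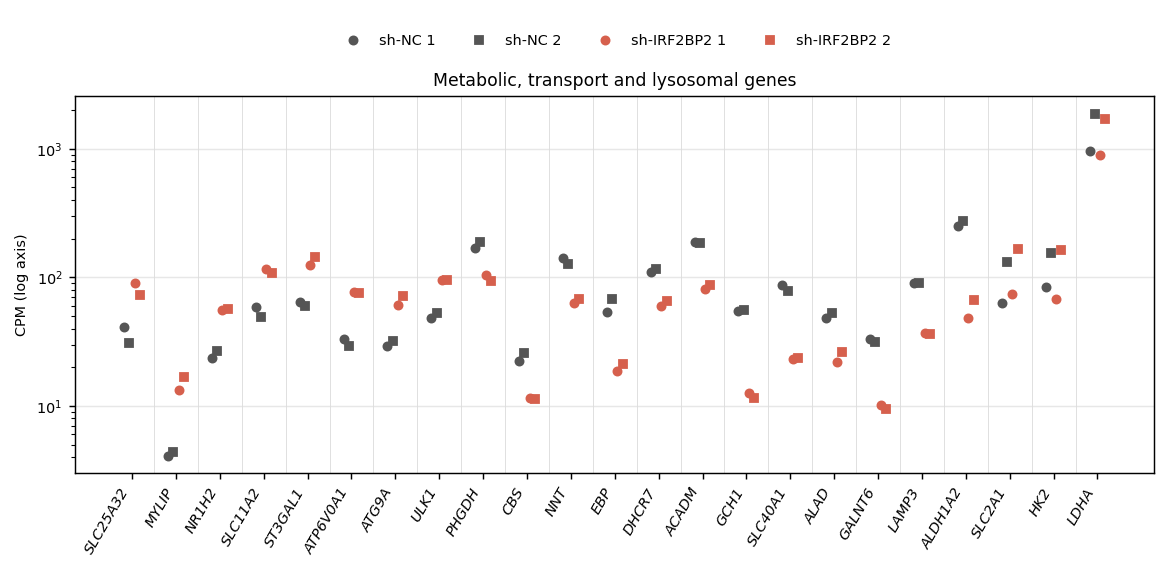
CPM per library (log axis) of metabolic, transport and lysosomal genes, with gray symbols for sh-NC and red for sh-IRF2BP2, circles for replicate 1 and squares for replicate 2. From SLC25A32 to ULK1 the red points lie above the gray ones, from PHGDH to ALDH1A2 below them, and in SLC2A1, HK2 and LDHA the squares lie above the circles in both groups. The genes up to ALDH1A2 were chosen for lack of overlap between the groups or after their values were seen.

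Of 42 glycolysis and lactate genes tested, 1 (2.38%) was higher and 3 (7.14%) lower. PGM2L1, which makes glucose bisphosphate, measured 90.3 and 75.9 CPM with sh-NC and 148 and 148 CPM with sh-IRF2BP2, with a log2 fold change of 0.84 (adjusted p = 0.00759). PFKFB2, which sets the level of fructose bisphosphate, measured 24.9 and 17.9 CPM with sh-NC and 10.3 and 10.9 CPM with sh-IRF2BP2, with a log2 fold change of -1.02 (adjusted p = 0.0201), and PGM2, a sugar phosphate mutase, fell by 0.53, a call lost without sh-NC replicate 1 (-0.44) and without either sh-IRF2BP2 library (-0.61 and -0.48). The summed level of the list was 13300 and 19550 CPM with sh-NC and 12110 and 17420 CPM with sh-IRF2BP2, so that replicate 2 was above replicate 1 in both groups. LDHA, which makes lactate, measured 960.3 and 1878 CPM with sh-NC and 898 and 1699 CPM with sh-IRF2BP2, HK2, which phosphorylates glucose, measured 83.5 and 154 CPM with sh-NC and 67.8 and 164 CPM with sh-IRF2BP2, and the glucose transporter SLC2A1 measured 63.4 and 132 CPM with sh-NC and 74.2 and 167 CPM with sh-IRF2BP2, with a call only without sh-NC replicate 2 (0.92). The groups overlapped in LDHA, HK2 and SLC2A1. CD4, the co-receptor of helper T cells, showed the same order at 3.17 and 9.64 CPM with sh-NC and 3.74 and 8.24 CPM with sh-IRF2BP2. LDHB, the other main chain of lactate dehydrogenase, fell by 0.6 on the log2 scale (adjusted p = 0.0268), a call lost without either sh-IRF2BP2 library (-0.67 and -0.56).

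Among 71 genes of actin, annexins, S100 proteins and intermediate filaments, 16 (22.5%) were higher and 5 (7.04%) lower. AHNAK, a giant scaffold under the membrane, measured 23.4 and 14.7 CPM with sh-NC and 120.5 and 119 CPM with sh-IRF2BP2, with a log2 fold change of 2.65 ± 0.209 (adjusted p = 0.00106). The tropomyosin TPM4 measured 866 and 869 CPM with sh-NC and 2145 and 2069 CPM with sh-IRF2BP2, and FLNA, the filamin that cross-links actin and tethers it to integrins, measured 726 and 589.9 CPM with sh-NC and 1507 and 1353 CPM with sh-IRF2BP2, with log2 fold changes of 1.28 and 1.12. MYL12A, a myosin regulatory light chain, measured 162 and 191 CPM with sh-NC and 71.5 and 73.8 CPM with sh-IRF2BP2 (log2 fold change -1.28, adjusted p = 0.00195), and ANXA2, an annexin that links actin to membranes, measured 133 and 158 CPM with sh-NC and 61.5 and 59.3 CPM with sh-IRF2BP2 (log2 fold change -1.27, adjusted p = 0.002). Both fell, and both hold the word GGTCTA, as do other fallen genes described here, such as ATP6V1C1, IL7R, STAT5A, TRAF3, ACADM and C9. Of the 10 genes of this list with the word, 1 was higher, 2 lower and 7 not called. VIM and ANXA1 had log2 differences of 0.31 and 0.09 that did not pass the test (adjusted p = 0.223 and 0.694).

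Transcription factors of the T lineage had 26 of 83 (31.3%) higher and 6 (7.23%) lower. MAF, a leucine zipper factor of helper and innate-like T cells, had 3 and 8 counts with sh-NC and 266 and 383 with sh-IRF2BP2, a ratio of 57.4 after scaling with a 95% interval of 31.9 to 116 that covers counting error only. RORA, a nuclear receptor of innate lymphoid and helper T cells, measured 53.6 and 41.9 CPM with sh-NC and 193 and 207 CPM with sh-IRF2BP2, with a log2 fold change of 2.07 ± 0.151 (adjusted p = 0.000795). Over all coding genes, the largest falls outside the lists included C9, a complement component made by the liver, at 17.9 and 18.98 CPM with sh-NC and 0.859 and 1.09 CPM with sh-IRF2BP2 (log2 fold change -4.24, adjusted p = 0.000414), the granulocyte factor CEBPE at 14.02 and 25.04 CPM with sh-NC and 2.68 and 3.97 CPM with sh-IRF2BP2 and the membrane raft protein MAL at 17.5 and 29.5 CPM with sh-NC and 3.12 and 5.02 CPM with sh-IRF2BP2. ACTG2, a smooth muscle actin, was among the largest rises at 12.6 and 19.3 CPM with sh-NC and 62.2 and 72.2 CPM with sh-IRF2BP2 (log2 fold change 2.07, adjusted p = 0.00193), and its reads can be shared with other actin genes. Larger fitted changes came from coding rows with 0 counts in both libraries of a group. BLOC1S5-TXNDC5 had 657 and 2379 counts with sh-NC and 0 with sh-IRF2BP2. BIVM-ERCC5 had 0 counts with sh-NC and 685 and 2140 with sh-IRF2BP2. ENSG00000254692 had 0 counts with sh-NC and 333 and 273 with sh-IRF2BP2. How reads were assigned to such rows was not tested.

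Non-coding genes were called at a lower rate than coding genes, of which 6.46% were higher and 5.9% lower. Of 1777 long non-coding RNA (lncRNA) genes tested, 27 (1.52%) were higher and 24 (1.35%) lower, of 650 processed pseudogenes 5 and 9, of 420 other pseudogenes 2 and 3, and of 29 small RNA genes 0 by edgeR or DESeq2, with 2 lower at an unadjusted p under 0.05. MALAT1, a nuclear RNA of speckles, measured 54.6 and 37.4 CPM with sh-NC and 73.4 and 96.3 CPM with sh-IRF2BP2, with a log2 fold change of 0.88 (adjusted p = 0.0326). NEAT1, the scaffold of paraspeckles, measured 54.5 and 48.5 CPM with sh-NC and 68.2 and 83.01 CPM with sh-IRF2BP2, with a log2 fold change of 0.55 (adjusted p = 0.0433). NORAD, a cytoplasmic RNA that sequesters Pumilio proteins, measured 263 and 212 CPM with sh-NC and 146 and 161 CPM with sh-IRF2BP2, with a log2 fold change of -0.63 (adjusted p = 0.0317). Not one of these RNAs held its call without sh-IRF2BP2 replicate 2 (0.67, 0.40 and -0.71), and the calls of NEAT1 and NORAD were also lost without sh-IRF2BP2 replicate 1 (0.66 and -0.58), that of NEAT1 without sh-NC replicate 2 (0.47) and that of NORAD without sh-NC replicate 1 (-0.47). Of the 28 host genes of small nucleolar RNAs, 0 were called by edgeR or DESeq2 and 4 were lower at an unadjusted p under 0.05. Among them GAS5 and SNHG1 had log2 differences of -0.24 and -0.25.

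Of 26 host genes of microRNAs, 1 was higher and 1 lower. MIR181A1HG, the host of miR-181a and miR-181b, which tune T cell receptor sensitivity in thymocytes, had 10 and 1 counts with sh-NC and 82 and 61 with sh-IRF2BP2 (ratio 12.6, 95% interval 6.86 to 25.9 for counting error only, adjusted p = 0.0246). MIR223HG, the host of the myeloid miR-223, measured 1.78 and 2.16 CPM with sh-NC and 0.412 and 0.644 CPM with sh-IRF2BP2, with a log2 fold change of -1.89, with no call without sh-NC replicate 2 (-1.74) or without either sh-IRF2BP2 library (-1.63 and -2.25). MIR17HG and MIR142HG had log2 differences of -0.44 and -0.48 (adjusted p = 0.369 and 0.281).

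Some called lncRNA genes, a minority, lay at coding genes that moved the same way. Of 27 risen lncRNA genes, 18 overlapped a tested coding gene or lay within 5000 bases of one, and the nearest was higher in 8 (44.4%) and lower in 1. PDPK1 was counted for both ENSG00000261613 and ENSG00000269937. Of 24 fallen ones, 18 had such a neighbor, which was lower in 6 (33.3%) and higher in 1. For the 1361 uncalled lncRNA genes with a neighbor, 8.23% of neighbors were higher and 4.7% lower. ENSG00000272733, on chromosome 22 of hg38 from 23580880 to 23583859, lies 578 bases from IGLL1, on the same strand, and had 5.48 and 5.32 CPM with sh-NC and 0.412 and 0.407 CPM with sh-IRF2BP2, with a log2 fold change of -3.71 (adjusted p = 0.00151). IGLL1, the surrogate light chain gene, had 479 and 651 CPM with sh-NC and 83.4 and 92.1 CPM with sh-IRF2BP2, with a log2 fold change of -2.69. On the risen side, SH3BP5-AS1 and SH3BP5, which encodes a regulator of RAB11, had log2 fold changes of 0.96 and 1.44, and ENSG00000273189, which overlaps FLT3LG on its strand, went from 0.154 and 0.161 CPM to 0.618 and 1.46 CPM, with a log2 fold change of 2.68. SH3BP5-AS1 was not called without sh-NC replicate 2 (0.69) or sh-IRF2BP2 replicate 1 (0.76), and ENSG00000273189 not without either sh-NC library (2.65 and 2.71) or sh-IRF2BP2 replicate 2 (1.94). The library kit does not mark strand, so reads of overlapping genes on either strand cannot be told apart in these counts.

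**Figure D5:**
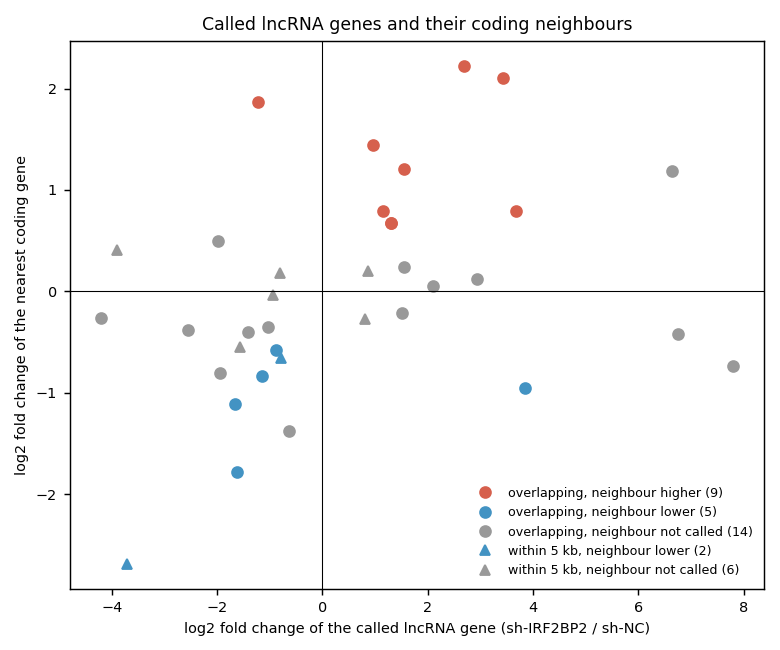
Log2 fold change of each called lncRNA gene with a tested coding gene at most 5000 bases away (horizontal axis) against that of the nearest such gene (vertical axis), with circles where the genes overlap and triangles where they do not, and color by the call of the coding gene. Of the 16 colored points, 14 lie at the upper right or lower left, and the 2 others are ENSG00000259326 at RASGRP1 and ZFHX3-AS1 at ZFHX3.

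The lncRNA gene with the largest fitted rise was ENSG00000253645, which overlaps PLEKHA2 on the opposite strand. It had 1 and 3 counts with sh-NC and 383 and 587 with sh-IRF2BP2, a ratio of 236 with a 95% interval of 91.8 to 867 for counting error only, while PLEKHA2 had a log2 difference of -0.74 and was not called. The part of reads shared with PLEKHA2 in these counts was not tested. Away from coding genes, LINC01963 measured 6.68 and 10.1 CPM with sh-NC and 18.3 and 16.01 CPM with sh-IRF2BP2 (log2 fold change 1.03, not called without sh-IRF2BP2 replicate 1 at 0.91), and ENSG00000266088 measured 3.48 and 5.32 CPM with sh-NC and 0.549 and 1.15 CPM with sh-IRF2BP2 (log2 fold change -2.36, adjusted p = 0.016). LCT-AS1, antisense to the lactase gene, measured 17.96 and 19.8 CPM with sh-NC and 3.12 and 6.62 CPM with sh-IRF2BP2 (log2 fold change -1.95, adjusted p = 0.0106).

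Pseudogenes can share reads with their parent genes, so their values are uncertain. Of the 14 called pseudogenes with a tested parent, 8 had a called parent, each in the same direction, and 11 a parent of the same sign, and of 468 uncalled ones 41 had a parent called in either direction and 326 one of the same sign. ITGB1P1 had a log2 fold change of 0.99 beside 1.01 of ITGB1, TWF1P1 of 1.97 beside 1.64 of TWF1, and ANXA2P2 of -1.22 beside -1.27 of ANXA2. ANXA2P2 was not called without sh-NC replicate 2 (-0.87) or without either sh-IRF2BP2 library (-1.39 and -1.09). HNRNPA1P21 fell by 2.87 while HNRNPA1 had a log2 difference of -0.14 and was not called.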

How the data were processed

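RNA of 4 J.gamma1 libraries (2 sh-NC and 2 sh-IRF2BP2) was sequenced with an Illumina TruSeq RNA kit, which does not mark strand. Per the labels and the study's methods, the authors aligned reads to hg38 with HISAT2 2.2.0 and assembled and counted them with StringTie. They deposited raw counts per gene, with no normalization, and whether counting used strand is not stated. Rows in no gene of GENCODE 44 were left out, which kept 98% of the counts.

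Low counts were removed with filterByExpr and TMM factors computed, and differences were tested in edgeR 4.0.16 under R 4.3.3 (glmQLFit and glmQLFTest, condition only, Benjamini-Hochberg adjustment over 15819 genes). DESeq2, which the authors used, was an alternative, here in version 1.42.0. It called 1022 genes higher and 960 lower, more in each direction than the study reported at the same thresholds. The cause of that gap was not tested. A call needed both an adjusted p below 0.05 and a difference of 0.5 or more on the log2 scale. The totals of 26648204 to 31120236 counts set the precision, with 2 residual degrees of freedom and a common BCV (biological coefficient of variation) of 0.165. Counts were simulated for this comparison over 15819 genes, with a spread set by expression level alone. The genes changed were drawn from those of at least 5 CPM. Of these, edgeR recovered 92 of 100 changed by 1 on the log2 scale and 100 of 100 changed by 2, with 7 false calls. These rates do not cover genes of lower counts or the shifts seen without single libraries. Counts of replicates differed by more than sampling noise (chi-square per gene 38 for sh-NC and 19.5 for sh-IRF2BP2), so each library was counted as 1 sample.

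Other scalings, filters on low counts, counts divided by 2, all rows, a replicate block and fits without each library were tried. Overlapping genes, antisense genes and pseudogenes can share reads. The lists, the members and the word in the 3′ UTR were chosen with earlier results of these data known. Named genes are anchors of the lists and up to 3 risen and 3 fallen called members of at least 10 CPM without overlap (1 CPM for non-coding genes), plus the 10 largest rises and falls of coding genes and the 5 largest of lncRNA genes. ANXA2P2, ATG14, CCR4, CD2, CD79A, GABARAPL1, GRAP2, HBEGF, ID1, ID2, IFNG, IL2RA, IL2RB, IRF9, ITGB1P1, NCAM1, SC5D, SH3BP5, STAT4, TNFSF4 and ULK1 fall outside it and were chosen after their values were seen, as were genes given only as neighbors, parents or holders of the word. Some genes and 1 list are not reported here. The mouse libraries of the series were not analysed here.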

Additional observations from a re-analysis of the deposited data

How the results depend on the processing

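IRF2BP2 kept its direction and its call under all 12 alternatives, at -1.35 to -1.13 on the log2 scale without single libraries. With every gene of at least 1 count in any library kept, 319 genes were higher and 396 lower, all of them also called under the standard filter, and the higher and lower counts were 26 and 14 for surface, 35 and 20 for signalling, 21 and 35 for metabolic and 6 and 8 for non-coding genes. Without single libraries the counts ran from 418 to 1608 higher and 419 to 1143 lower over all genes, 32 to 64 and 12 to 32 for surface, 43 to 140 and 17 to 52 for signalling, 28 to 69 and 33 to 92 for metabolic, and 14 to 132 and 13 to 77 for non-coding genes, where the lone library of a group was assumed to vary like the other group. With the replicate number as a block, 1293 genes were higher and 1174 lower over all genes, against 864 and 793 without it. Among them 37 surface genes were lower, and 98 non-coding genes were higher and 94 lower. The numbers are not known to pair the libraries: deviations of same-numbered libraries correlated at 0.318 over 10919 genes of at least 5 CPM, with only 2 pairs, and the block moved no other of these counts by over 1.5 times. Of the 148 named called genes followed under the alternatives, 0 reversed under any, and 101 held the call under all of them. The uncalled LDHA ranged from -0.66 to 0.43, HK2 from -0.81 to 0.47, CD4 from -0.78 to 0.92 and SLC2A1 from -0.41 to 0.92 without single libraries. The cause of these shifts was not tested. Genes near a few counts, which include most non-coding genes, are limited by depth.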
